A study of Homo sapiens with 88 samples.

Results

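The LSD1-CoREST complex is described here through 9 of its genes, KDM1A, HMG20B, RCOR1, RCOR2, RCOR3, HDAC1, HDAC2, PHF21A and ZNF217, in small cell lung cancer (SCLC) lines under the vehicle DMSO and under 552A, the name that sample titles give a treatment. The members were all probe sets of the array that a list of gene symbols assigns to 1 of these genes alone, which gave 18 probe sets of the 41091 with 1 gene. Of these, 17 were bright enough to be tested, among 29598 tested in all. A probe set is a group of short probes on the array that reads 1 transcript or a few, so the genes had between 1 and 4 readings each. Values are log2 signals per probe set, on which a step of 1 is a doubling, and every response is 552A minus DMSO on that scale.

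Total RNA was hybridised to 88 arrays of the Affymetrix HG-U133 Plus 2.0 type. Both arms were sampled after 2, 4 and 7 days in COLO668, NCI-H146, NCI-H446, NCI-H510, NCI-H526 and SHP-77, and after 4 days in H69, H1417 and H2171. These are established human tumour cell lines, grown in RPMI with serum at passages the labels give only as multiple, and no engineered allele is named for any of them. The treatment protocol names the vehicle DMSO and 1 µM GSK2879552, an inhibitor of LSD1, and no label states that 552A is that compound. The submitters' design speaks of sensitive and of resistant lines without saying which is which, so no such split was made. Of the 42 groups of line, treatment and day, 39 held 2 arrays, 2 held 3 and 1 held 4. Whether the arrays of a group stem from separate cultures is not labelled, and p-values within a line then measure only the spread between these arrays, which may be technical. RNA was taken from whole cultures, where a change in the share of cells that express a gene and a change in RNA per cell cannot be told apart.

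LSD1, the product of KDM1A, is a flavin-dependent enzyme that removes methyl groups from lysine 4 of histone H3. On nucleosomes it works together with a CoREST scaffold, which also holds the deacetylases HDAC1 or HDAC2, so that demethylation and deacetylation are coupled at the same sites. DNA-binding factors such as GFI1, INSM1 and members of the SNAI family bring the complex to promoters and enhancers through a short region that resembles the tail of histone H3. In neuroendocrine tumours INSM1 is an abundant factor of this kind.

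The results turn mainly on 2 members, HMG20B and ZNF217, so the 250 bases before the annotated start of each are shown, 5′ to 3′ on the gene's strand, from RefSeq's GRCh38.p14 annotation. Capitals mark CG pairs, the sites at which DNA methylation occurs. The HMG20B window lies at chr19:3572694-3572943 on the plus strand and the ZNF217 window at chr20:53593840-53594089 on the minus strand.
HMG20B: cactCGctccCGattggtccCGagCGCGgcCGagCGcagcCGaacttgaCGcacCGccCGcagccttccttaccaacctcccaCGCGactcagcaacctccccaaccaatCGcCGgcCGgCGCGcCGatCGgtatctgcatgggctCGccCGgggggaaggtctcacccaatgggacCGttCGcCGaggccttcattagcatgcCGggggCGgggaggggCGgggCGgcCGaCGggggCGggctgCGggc
ZNF217: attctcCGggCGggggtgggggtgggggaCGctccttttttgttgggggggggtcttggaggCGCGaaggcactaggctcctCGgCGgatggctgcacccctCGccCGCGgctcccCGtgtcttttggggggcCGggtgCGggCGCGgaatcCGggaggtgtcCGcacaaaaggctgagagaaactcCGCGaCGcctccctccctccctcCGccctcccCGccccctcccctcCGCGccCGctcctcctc
The HMG20B window held 33 CG pairs and the ZNF217 window 25, where the median of 35116 such windows is 11 and 8.15% and 21.6% of them held at least as many. Windows were found for 8 of the 9 genes. The letters CAGGTG (reverse complement CACCTG), a core bound by SNAI and ZEB factors, stood in 17.5% of all windows, and AAATCA (reverse complement TGATTT), a core bound by GFI factors, in 11.6%. Neither was found in any window of the members, which says only that these letters are not there.

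Array medians lay between 7.36 and 7.46, so the deposited values were compared without rescaling. Markers were read against the labelled tissue under DMSO: INSM1 (line means from 12.36 to 13.80), CHGA (10.78 to 13.57) and NCAM1 (10.74 to 12.77) were high in all 9 lines, SYP was only slightly above the median of all values (7.66 to 8.09), POU2F3 was high in NCI-H526 (12.48) and in no other line above that median, 7.41, and YAP1 was below that median in 9 of 9. Among markers of other cells, PTPRC stood between 4.59 and 5.37, CD14, COL1A1, COL3A1, DCN and LUM were below the median in every line, CD3E, PECAM1 and VWF were above it in all (at most 8.40), and CDH5 reached 10.91 in NCI-H446. On 5 arrays the signal of ACTB at the 3′ end exceeded that at the 5′ end by more than 0.8 over the median array, a sign of degraded RNA. They were SHP-77 DMSO day 7 replicate 1 (1.68), COLO668 DMSO day 7 replicate 1 (1.11), COLO668 552A day 7 replicate 2 (1.35) and SHP-77 552A day 7 replicates 1 and 2 (0.896 and 0.883). The sixth array in doubt, NCI-H446 DMSO day 4 replicate 2, had a narrow spread of values. Responses called in these lines, and those that pass without the 6 arrays, are given both ways. Without the 6 arrays COLO668 keeps a single array per arm at day 7, and SHP-77 a single DMSO array. None of the 6 arrays is from NCI-H526, H69 or H1417.

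KDM1A, the catalytic subunit, was strongly expressed in every line. Its level differed between lines, and in the reported form of the test its response passed in none. Under DMSO the line means of its probe set 212348_s_at ran from 11.44 ± 0.04 (SD, n = 6) in NCI-H510 and 11.48 ± 0.11 (n = 6) in SHP-77 to 12.55 ± 0.14 (n = 7) in NCI-H446 and 12.74 ± 0.01 (n = 2) in H2171, a 2.45-fold span. H69, H1417, NCI-H146, COLO668 and NCI-H526 lay between them in rising order. Here and below, DMSO line means, SDs and ranges pool the arrays of days 2, 4 and 7. In H69, H1417 and H2171 they cover day 4 alone, so the spread of the other lines can include change with time. Arrays overlapped between NCI-H510 and SHP-77, between H1417 and NCI-H146, and along the chain from NCI-H526 through NCI-H446 to H2171, so these neighbours were not separated beyond their spread. In NCI-H526 the DMSO arrays of KDM1A had a minimum of 12.32, a median of 12.37 and a maximum of 12.46, and the 552A arrays 12.42, 12.49 and 12.58. That was the largest of its 9 line responses, 0.13 ± 0.05 (SE), with an adjusted p of 0.0727 by limma. The smallest was -0.06 ± 0.09 in H2171. Without the 6 arrays in doubt, none of them from NCI-H526, KDM1A passed in that line (limma adjusted p = 0.00117) with its response unchanged at 0.13. In COLO668 its response was then 0.13, against 0.09 with all arrays, with a single array per arm left at day 7. Both are rises of under 1.1-fold. With all arrays KDM1A passed in NCI-H526 under quantile normalization (limma adjusted p = 0.00524) and in a fit of that line alone (0.021). Over the 9 lines at day 4 its mean response was 0.03 ± 0.03 (limma adjusted p = 0.765).

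**Figure D1:**
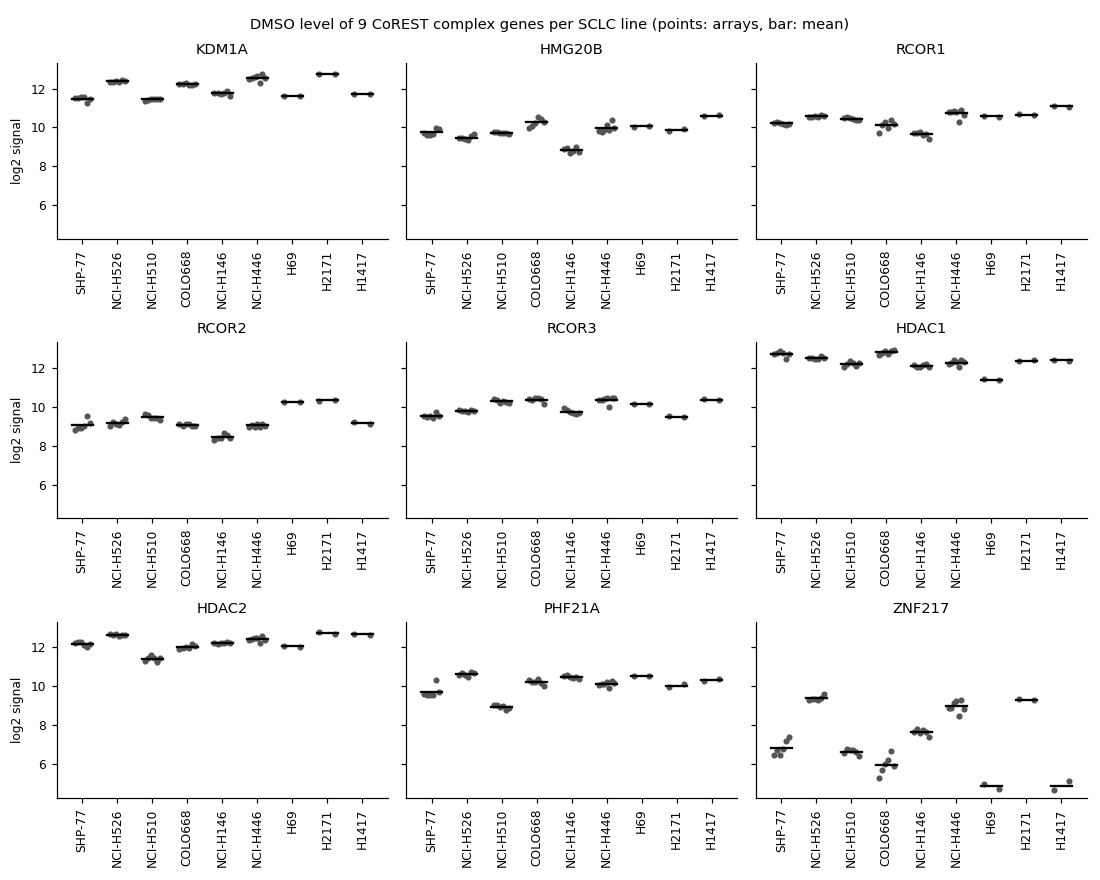
Log2 signal of each member under DMSO, 1 panel per gene at its brightest probe set and 1 column per line. Points are arrays of all days and bars are means. KDM1A, HDAC1 and HDAC2 stay above 11 in every line, while ZNF217 runs from 4.86 in H69 to 9.38 in NCI-H526.

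RCOR1, RCOR2 and RCOR3 encode the CoREST proteins, the scaffolds that bind LSD1. RCOR1 (212612_at) was highest in H1417 (11.08 ± 0.02, SD, n = 2) and lowest in NCI-H146 (9.64 ± 0.14, n = 6). RCOR2 (236030_at) stood at 10.34 ± 0.03 in H2171 and 10.25 ± 0.00 in H69 (n = 2 each), then at 9.47 ± 0.12 in NCI-H510 and between 9.04 and 9.20 in 5 lines whose arrays overlapped in sequence (H1417, NCI-H526, SHP-77, COLO668 and NCI-H446). NCI-H146 was again lowest, at 8.46 ± 0.13 (n = 6). RCOR3 (222605_at) spanned less, from 9.50 ± 0.01 in H2171 (n = 2) to 10.38 ± 0.11 in COLO668 (n = 6). H2171, the line with the highest RCOR2, thus had the lowest RCOR3 mean at 222605_at, with arrays that overlapped those of SHP-77. The other RCOR3 probe sets were lowest in other lines. Probe set 218344_s_at was lowest in NCI-H146 (8.43, with 8.55 in H2171), and 241433_at in COLO668 (7.49, with 8.24 in H2171).

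In COLO668 all 3 scaffolds rose at their brightest probe sets, and in the other 8 lines none of them passed the test with all arrays. RCOR2 went from a DMSO range of 8.99 to 9.11 (median 9.07) to a 552A range of 9.07 to 9.61 (median 9.27), a response of 0.26 ± 0.05 (SE, limma adjusted p = 0.000311). The ranges overlapped, with 1 or more arrays of each arm inside the range of the other. RCOR3 went from 10.17 to 10.48 (median 10.40) under DMSO to 10.40 to 11.001 (median 10.59) under 552A, a response of 0.28 ± 0.06 (limma adjusted p = 0.000112). For RCOR1 the arms overlapped more, with 9.71 to 10.40 (median 10.16) under DMSO and 9.97 to 10.70 (median 10.33) under 552A, and its response was 0.21 ± 0.07 (limma adjusted p = 0.0259). Most of each rise stood at day 7, where the ratio was 0.52 for RCOR2, 0.55 for RCOR3 and 0.40 for RCOR1, against 0.05, 0.08 and 0.14 at day 2. At day 7 both RCOR2 arrays under 552A (9.61 and 9.52) lay above both under DMSO (9.11 and 8.99), and the same held for RCOR3 (10.97 and 11.001 against 10.48 and 10.39). The 3′ excess of ACTB in COLO668 at day 7 averaged 0.706 under DMSO and 0.968 under 552A. Without the arrays in doubt the responses were 0.29 for RCOR2, 0.29 for RCOR3 and 0.18 for RCOR1. That left a single array per arm at day 7, whose excess was 0.302 under DMSO and 0.590 under 552A. Kept arrays of COLO668 reached 0.731 at day 2. Whether RNA quality bears on these rises was not tested.

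Other probe sets of RCOR1 and RCOR3 did not pass the test in COLO668. RCOR1's dimmer 237041_x_at had a response of -0.14. For RCOR3, 218344_s_at had 0.23, close to the 0.28 of 222605_at, and 241433_at had -0.17. Averaged over its probe sets, the COLO668 response was 0.04 for RCOR1 (limma adjusted p = 0.63) and 0.12 for RCOR3 (0.252). RCOR2 has a single probe set, so its rise has no such check. A fit of COLO668 alone did not call RCOR1 (limma adjusted p = 0.241) and gave 0.0174 for RCOR2 and 0.0275 for RCOR3. The RCOR1 call was also lost without any of 6 COLO668 arrays in turn, both arms and all 3 days among them, with an adjusted p of up to 0.197. RCOR2 in H69 was lower under 552A, with 10.25 and 10.25 under DMSO against 10.01 and 9.93, a response of -0.28 ± 0.09 that did not pass (limma adjusted p = 0.102). It passed without the 6 arrays in doubt, none of them from H69 (0.0231), and with the replicate block (0.0364). A difference of the response between the 6 lines sampled over time passed the moderated F test for RCOR2 (adjusted p = 0.000455) and RCOR3 222605_at (0.000128). It did not pass for RCOR1 (0.271) or for RCOR3 218344_s_at (0.052) and 241433_at (0.279). Of all tested probe sets 31.8% passed this F test.

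**Figure D2:**
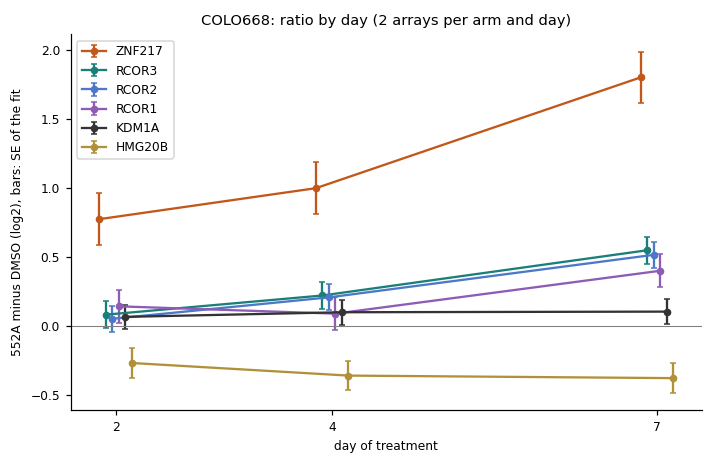
Response (log2, 552A minus DMSO) in COLO668 after 2, 4 and 7 days for 6 members at their brightest probe sets, with 2 arrays per arm and day. Bars are standard errors of the fit. ZNF217 goes from 0.77 to 1.80, RCOR1, RCOR2 and RCOR3 reach 0.40 to 0.55 at day 7, KDM1A stays between 0.07 and 0.11 and HMG20B stays below 0.

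HDAC1 and HDAC2 are the deacetylases of the complex, which they share with the NuRD, SIN3 and MiDAC complexes. HDAC1 (201209_at) was highest in COLO668 (12.80 ± 0.10, SD, n = 6) and SHP-77 (12.73 ± 0.13, n = 6), whose arrays overlapped, and lowest in H69 (11.40 ± 0.03, n = 2), below every array of the other 8 lines. HDAC2 (201833_at) ran from 11.42 ± 0.13 in NCI-H510 (n = 6), again apart from all others, to 12.76 ± 0.07 in H2171 (n = 2). The line lowest in one deacetylase was not the line lowest in the other.

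HDAC1 was lower under 552A by a small amount in each of the 9 lines, and in 20 of its 21 ratios of line and day. The share of all tested probe sets with as many ratios of 1 sign was not computed. HDAC1 passed the test in 3 lines. In NCI-H526 the 552A arrays (12.33 to 12.40, median 12.38) lay below all DMSO arrays (12.48 to 12.62, median 12.50), with a response of -0.15 ± 0.04 (SE, limma adjusted p = 0.0137). In NCI-H510 the arms overlapped (DMSO 12.05 to 12.35, 552A 11.99 to 12.22), at -0.14 ± 0.05 (adjusted p = 0.0398). H69 had 11.38 and 11.42 under DMSO against 11.10 and 11.11 under 552A, at -0.30 ± 0.08 (adjusted p = 0.0211). Each of these calls rested on few arrays. The NCI-H526 call was lost without DMSO day 7 replicate 1 (adjusted p = 0.0614), the NCI-H510 call without any of 7 arrays of that line (up to 0.186) or with only the arrays of that line (0.0742), and the H69 call without any of its 4 (up to 0.195). Without the 6 arrays in doubt HDAC1 also passed in NCI-H446 (-0.12, adjusted p = 0.00767, against -0.09 and 0.376 with them) and in H1417 (-0.18, 0.0223). None of the 6 is from H1417, where the response was unchanged and the adjusted p with them was 0.233. Over the 9 lines at day 4 the mean was -0.12 ± 0.03, with an adjusted p of 0.208.

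HDAC2 rose in NCI-H526, from 12.61 to 12.71 (median 12.64) under DMSO to 12.76 to 12.83 (median 12.80) under 552A, with arms that did not overlap. The response was 0.14 ± 0.05 (SE, limma adjusted p = 0.0496), so close to the threshold that leaving out an array anywhere in the set lost the call in 61 of 88 cases, with an adjusted p of up to 0.147. Its dimmer probe set 242141_at had -0.02 in the same line, and the mean of both gave 0.06 (adjusted p = 0.47). The day 4 ratio of NCI-H510, -0.28, was the lowest of the 9 lines.

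HMG20B encodes BRAF35, a protein with an HMG box and a coiled coil that binds bent DNA and is a stable component of the complex. Of the members it had the most frequent response, always downward. Its brightest probe set, 210719_s_at, fell in 6 of the 9 lines, by between 0.24 and 0.37 on the log2 scale, which is 1.18-fold to 1.296-fold lower, and was below 0 in 9 of 9 lines and in 19 of 21 ratios of line and day. Probe set 209113_s_at, 0.81 log2 units dimmer, fell in NCI-H526 (-0.24, limma adjusted p = 0.0449), COLO668 (-0.39, 8e-04) and NCI-H146 (-0.33, 0.0141), and had the same sign as 210719_s_at in 21 of 21 ratios. The third, 213966_at, was too dim to be tested, with a highest group mean of 6.68. The share of all tested probe sets called in as many lines, or below 0 in as many ratios, was not computed.

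The lines differed in how cleanly the arms of HMG20B separated. In NCI-H526 the DMSO arrays held 9.36 to 9.67 (median 9.44) and the 552A arrays 9.004 to 9.22 (median 9.17), a fall of 0.35 ± 0.06 (SE, limma adjusted p = 7.7e-06). In NCI-H510 they held 9.68 to 9.79 (median 9.71) and 9.33 to 9.46 (median 9.41), a fall of 0.33 ± 0.06 (adjusted p = 7.21e-05). In both lines every 552A array was below every DMSO array. COLO668 had 9.98 to 10.51 (median 10.26) against 9.77 to 10.27 (median 9.91), with a response of -0.33 ± 0.06 (adjusted p = 4.29e-05). Without the arrays in doubt it was -0.26, with a single array per arm left at day 7. In a fit of COLO668 alone its limma adjusted p was 0.0149. NCI-H146 had 8.69 to 9.001 (median 8.86) against 8.45 to 8.71 (median 8.58), with a response of -0.25 ± 0.06 (adjusted p = 0.00571). In COLO668 the arms overlapped broadly over the days as a whole, and in NCI-H146 they overlapped at the edges. The NCI-H146 call was lost without DMSO day 4 replicate 1 (adjusted p = 0.0559), without 552A day 7 replicate 1 (0.0534) or in a fit of that line alone (0.0507).

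SHP-77 fell over its days as a whole (-0.24 ± 0.06, limma adjusted p = 0.00587) but not at day 7. At day 2 its HMG20B arrays stood at 9.70 and 9.64 under DMSO against 9.29 and 9.22 under 552A, and at day 4 at 9.62 and 9.65 against 9.32 and 9.22. At day 7 the 4 arrays under 552A (10.09, 10.11, 9.79 and 9.97) lay around the 2 under DMSO (9.95 and 9.93), and the ratio was 0.05. Of these 6 arrays 3 were among those with the ACTB excess, which averaged 1.00 under DMSO and 0.543 under 552A. Leaving those 3 out with the other arrays in doubt gave -0.28 for the line (adjusted p = 0.00098). NCI-H446 likewise had no lower value at day 7, with ratios of -0.13, -0.28 and 0.14. Its response of -0.09 ± 0.06 did not pass with all arrays (adjusted p = 0.504) or without those in doubt (-0.12, 0.227). Its day 4 value rested on DMSO arrays of 9.88, 9.86 and 10.38, the last far above the others, against 9.73 and 9.79 under 552A.

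The lines sampled at day 4 alone had 2 arrays per arm. HMG20B in H1417 went from 10.59 and 10.63 to 10.20 and 10.27, a response of -0.37 ± 0.11 (SE, limma adjusted p = 0.0188), which was lost without any of the 4 arrays (up to 0.158) or in a fit of that line alone (0.199). H69 went from 10.04 and 10.08 to 9.73 and 9.69, a response of nearly the same size (-0.35 ± 0.11) that missed the threshold (adjusted p = 0.0576). It passed with 1 probe set per gene (0.0435), without the 6 arrays in doubt (0.0121) and with the replicate block (0.00808). In H2171 the arms overlapped (9.84 and 9.93 against 9.89 and 9.83), with a response of -0.03 ± 0.11.

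**Figure D3:**
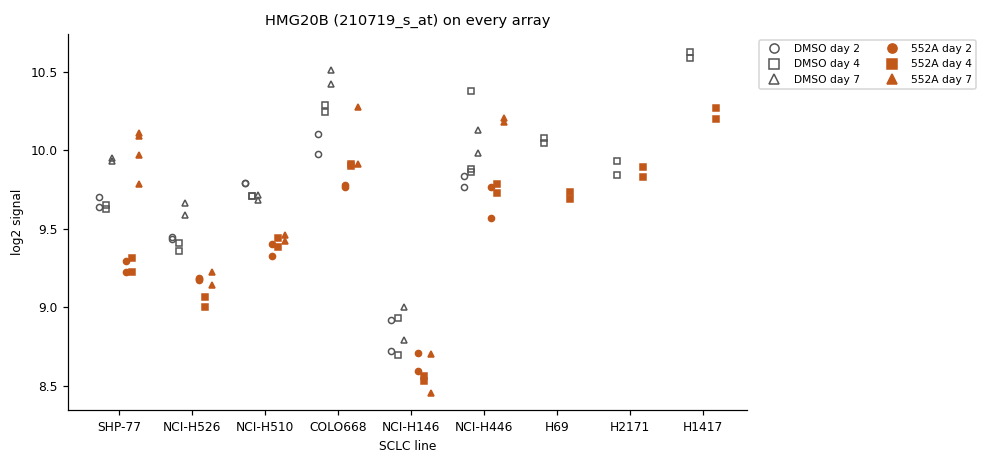
Log2 signal of HMG20B (210719_s_at) on every array, by line on the horizontal axis. Open grey symbols are DMSO and filled orange symbols 552A, with shapes for the day. The 552A arrays lie lower without overlap in NCI-H526 and NCI-H510. They do so in H69 and H1417 too, but with only 2 arrays per arm separation is easily reached. How often other probe sets separate in this way was not computed. At day 7 in SHP-77 and NCI-H446 the 552A arrays do not lie lower.

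Whether HMG20B fell across the lines was tested with the line as the replicate. Its mean response at day 4 over the 9 lines was -0.30 ± 0.04 (SE), with an adjusted p of 0.0513 by limma, rank 6 of 29598 probe sets, and 209113_s_at gave -0.26 ± 0.04 (adjusted p = 0.0625, rank 34). In this test 0.00338% of probe sets passed, a single one (PTPN14, which encodes a phosphatase, named after its value was seen), and 3351 had an unadjusted p under 0.05. With 1 probe set per gene 0.0521% passed, 8 of 15352 genes, and HMG20B was among them (adjusted p = 0.027). It lies at the threshold, and other settings of the filter and the variance prior also moved it across (0.0337 to 0.0486). It was called without SHP-77 (0.0477) and without H2171 (0.0205) and in none of the fits without another line. No other member passed in either form. Line means of equal sign in 9 of 9 lines were seen in 1.86% of tested probe sets and in 4 of the 17 members: both of HMG20B and HDAC1 below 0, and PHF21A 1554153_a_at above 0.

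Under DMSO HMG20B was highest in H1417 (10.61 ± 0.03, SD, n = 2) and lowest in NCI-H146 (8.84 ± 0.13, n = 6), each apart from its neighbour. From COLO668 (10.26 ± 0.20) down through H69, NCI-H446, H2171 and SHP-77 to NCI-H510 (9.73 ± 0.05) each line's arrays overlapped with the next. The line with the lowest DMSO level and the line with the highest were both among the 6 in which it fell.

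PHF21A encodes BHC80, a subunit whose PHD finger binds histone H3 with an unmethylated lysine 4. No probe set of PHF21A passed in any line with all arrays. With all arrays 203278_s_at had 0.18 in COLO668 (limma adjusted p = 0.0834), and it passed there with the replicate block (0.0288). Without the arrays in doubt its response there was 0.20, with a single array per arm left at day 7. In H1417, from which none of them came, it then passed (limma adjusted p = 0.0301) at an unchanged 0.23. Under DMSO 203278_s_at, the brightest, was lowest in NCI-H510 (8.94 ± 0.10, SD, n = 6), below all arrays of other lines. It was highest in NCI-H526 (10.62 ± 0.08, n = 6), whose arrays overlapped those of H69. SHP-77 lay next to last at 9.72 ± 0.30, with arrays from 9.56 to 10.32. The COLO668 ratio at day 7, 0.42, was the highest of the 6 lines. Probe set 1554153_a_at, about 0.83 log2 units dimmer, had positive responses of 0.02 to 0.17 in all 9 lines and a day 4 mean of 0.12 ± 0.04 (limma adjusted p = 0.258).

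ZNF217 encodes a zinc finger protein that joins the complex together with CtBP in epithelial and tumour cells, and lies in a region of chromosome 20 often gained in carcinomas. It varied most of the members, both between lines and under treatment. NCI-H526 (9.38 ± 0.12, SD, n = 6), H2171 (9.32 ± 0.04, n = 2) and NCI-H446 (8.97 ± 0.28, n = 7) formed a high group with overlapping arrays. NCI-H146 followed at 7.64 ± 0.13 (n = 6), apart from both neighbours. SHP-77 (6.83 ± 0.37), NCI-H510 (6.65 ± 0.14) and COLO668 (5.98 ± 0.48, n = 6 each) overlapped in turn, and H1417 (4.90 ± 0.30) and H69 (4.86 ± 0.17, n = 2 each) were lowest. The last 3 line means lie below 6.09, the median over arrays of each array's lower quartile, where the signal may not stand above background. Folds from such levels depend on how background was treated, and no fold is given for the span between lines.

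Under 552A ZNF217 rose in 3 lines. COLO668 had DMSO arrays of 5.28 and 5.72 at day 2, 6.02 and 5.91 at day 4 and 6.23 and 6.70 at day 7, against 552A arrays of 6.37 and 6.18, 7.02 and 6.89, and 8.37 and 8.15. On each day both treated arrays were above both controls, although the days together overlapped, since both arms were higher at later days. The response was 1.19 ± 0.11 (SE, limma adjusted p = 6.84e-13). Without the arrays in doubt it was 1.15, with a single array per arm left at day 7. In a fit of COLO668 alone its limma adjusted p was 0.000127. No fold is given for COLO668, since its DMSO mean lies below 6.09. NCI-H510 had 6.39 to 6.79 (median 6.68) under DMSO and 7.13 to 7.72 (median 7.36) under 552A, with no overlap, a response of 0.71 ± 0.11 (1.63-fold, adjusted p = 1.17e-06). NCI-H526, where ZNF217 started highest, had 9.29 to 9.61 (median 9.34) and 9.54 to 9.91 (median 9.76), a response of 0.37 ± 0.10 (1.29-fold, adjusted p = 0.00865). All 3 calls held without any single array, with adjusted p of at most 0.0393.

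The other lines did not pass. NCI-H146 had 0.28 ± 0.11 (SE, limma adjusted p = 0.151), and passed in a fit of that line alone (0.0236). NCI-H446 had 0.19 ± 0.10 (0.412). SHP-77 had 0.02 ± 0.10, which without the arrays in doubt was -0.05 (0.835), and averaged with them ratios of -0.26 at day 2, -0.15 at day 4 and 0.45 at day 7. H69, H2171 and H1417, at day 4, lay between -0.07 and 0.06. Responses differed between the 6 lines by the F test (adjusted p = 4.51e-08). Over those lines the mean ratio of ZNF217 was 0.25 ± 0.15 at day 2, 0.40 ± 0.16 at day 4 and 0.73 ± 0.24 at day 7. It was greater at day 7 than at day 2 in 6 of 6 lines, by 0.48 ± 0.12 on average, which did not pass after adjustment (0.764). In that test 0% of probe sets passed, with 1848 at an unadjusted p under 0.05. In NCI-H510 the ratios were 0.45, 0.62 and 1.05.

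**Figure D4:**
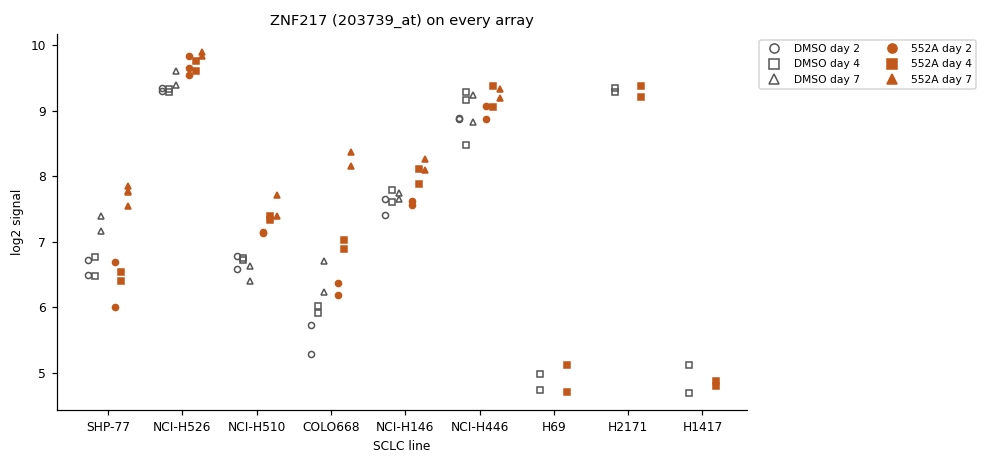
Log2 signal of ZNF217 (203739_at) on every array, by line. Open grey symbols are DMSO and filled orange symbols 552A, with shapes for the day. In NCI-H510 all 6 arrays under 552A lie above all 6 under DMSO, in COLO668 they do so on each day, and H69 and H1417 stay below 5.2 in both arms.

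The members' calls are set here beside the share of all tested probe sets that passed in the same line. In NCI-H526 17.5% of tested probe sets passed, and of the 17 members 2 rose and 3 fell. In COLO668 it was 17.2%, and 4 rose and 2 fell. In NCI-H510 it was 12.7%, and 1 rose and 2 fell. In SHP-77 it was 6.12% with 1 member down, and in NCI-H146 4.93% with 2 down, both of HMG20B. In H1417 it was 7.05% and in H69 3.06%, with 1 down in each. In NCI-H446 4.36% passed and no member did, and in H2171 1.42% and no member, where 4266 and 2464 probe sets had an unadjusted limma p under 0.05. The F test for a difference of the response between lines passed for 31.8% of probe sets and for 3 of the 17 members, RCOR2, RCOR3 222605_at and ZNF217. That for the DMSO level between the 9 lines at day 4 passed for 96.7% and for 16 of 17, all but RCOR1 237041_x_at (adjusted p = 0.0658). The median response of the members ran from -0.06 in NCI-H146 to 0.09 in COLO668, where those of all tested probe sets were 0.01 and -0.02.

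**Figure D5:**
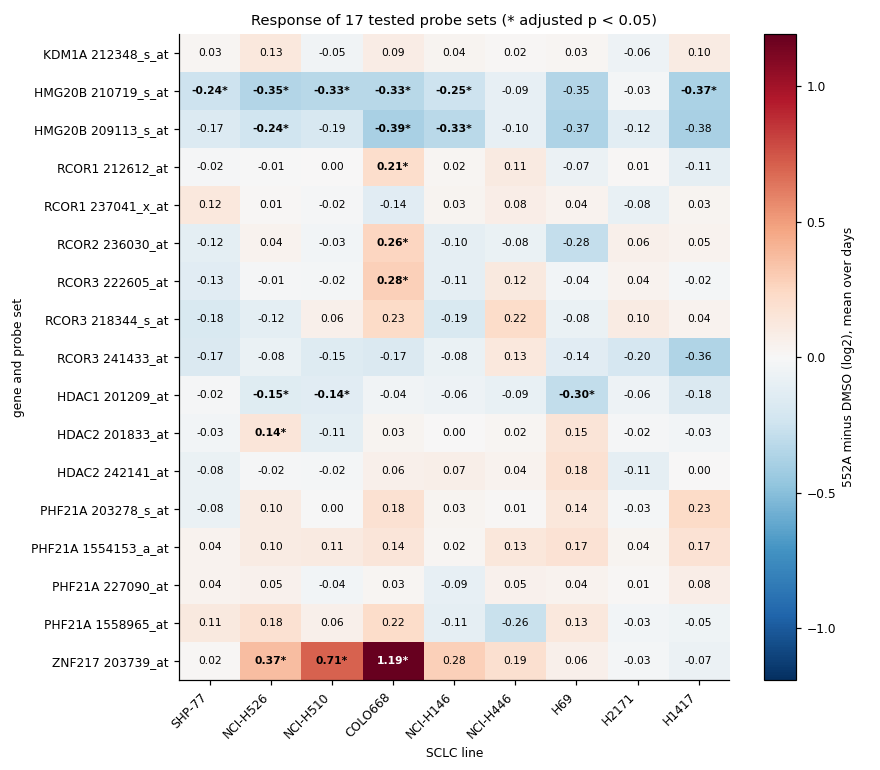
Response (log2, 552A minus DMSO, mean over the days of a line) of the 17 tested probe sets in 9 lines. Red is higher and blue lower under 552A, and an asterisk marks an adjusted p below 0.05. HMG20B is blue in all lines, and ZNF217 is strongest in COLO668 (1.19) and NCI-H510 (0.71).

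Probe sets of a gene agreed on levels more than on responses. Over the 21 DMSO means of line and day, Pearson's r was 0.978 for PHF21A 203278_s_at with 1554153_a_at, 0.939 for HMG20B 210719_s_at with 209113_s_at, 0.848 for the HDAC2 pair and 0.781 for RCOR3 222605_at with 218344_s_at. Over the 21 ratios the same pairs had 0.578, 0.712, 0.462 and 0.665. RCOR3 241433_at followed 222605_at in neither (0.0873 and 0.0845), and the RCOR1 pair had 0.395 for levels and -0.357 for ratios, with the same sign in 8 of 21. HMG20B 210719_s_at with 213966_at had 0.273 and 0.0763. These points share lines, so the coefficients are descriptions only. KDM1A, RCOR2, HDAC1 and ZNF217 have 1 probe set each.

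Across the 9 lines under DMSO at day 4, the pairs of members with the highest r were HMG20B with RCOR1 (0.769) and KDM1A with ZNF217 (0.724), and the lowest were RCOR3 with ZNF217 (-0.504) and HMG20B with ZNF217 (-0.492). Over the 21 DMSO means, the genes most like KDM1A among all tested were PLPPR1 (r = 0.946), CSTF3 (0.943), AUNIP (0.929) and HLA-E (0.922). Those most like HMG20B were KYAT3 and ADGRB3-DT (0.887 each), then ERCC6L2 and PPP4R3A (0.88 each). For the ratios of HMG20B they were PCYOX1L (0.794), TMEM107 (0.784), HTRA2 (0.764) and SNX14 (0.761). All are descriptions over points that share lines.

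Of 20 genes listed as recruiters and partners of LSD1, 19 had a tested probe set, 50 in all. Up and down calls were 13 and 1 in NCI-H526, 10 and 1 in COLO668, 6 and 1 in NCI-H510, 5 and 0 in H1417, 2 and 1 in NCI-H446, 2 and 0 in each of SHP-77, NCI-H146 and H2171, and 1 and 0 in H69. In NCI-H526 that is 28% of the list's probe sets, beside 17.5% of all tested. It was 22% beside 17.2% in COLO668, 14% beside 12.7% in NCI-H510 and 10% beside 7.05% in H1417. NCI-H446 had 6% beside 4.36%, and H2171 4% beside 1.42%. The share was lower than that of all tested in SHP-77 (4% beside 6.12%), NCI-H146 (4% beside 4.93%) and H69 (2% beside 3.06%). The genes with the largest mean at day 4 were ZEB1 (1.197 ± 0.34, SE, limma adjusted p = 0.209), SNAI2 (0.76 ± 0.17, adjusted p = 0.134) and L3MBTL3 (-0.12 ± 0.06, adjusted p = 0.49). ZEB1 and SNAI2, zinc finger repressors that drive loss of epithelial features, each rose in 5 of the 9 lines. SNAI2 was above 0 at day 4 in all 9. How many of all tested probe sets were called in as many lines was not counted.

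The complexes that also hold HDAC1 and HDAC2 were read beside them. NuRD, the remodelling complex around CHD4, had 13 of 13 genes and 33 probe sets tested. COLO668 had 8 up and 0 down (24.2%, beside 17.2% of all tested), and NCI-H526 2 up and 4 down (18.2% beside 17.5%). SHP-77 had 1 up and 3 down (12.1% beside 6.12%), and H1417 3 up (9.09% beside 7.05%). H69 had 1 up (3.03% beside 3.06%), NCI-H146 1 down (3.03% beside 4.93%), and the other lines 0. CHD5, a neural paralogue of CHD4, had the largest day 4 mean of this list (0.20 ± 0.06, SE, limma adjusted p = 0.227) and rose in 2 lines, before MBD2 (0.08 ± 0.06) and MTA3 (-0.06 ± 0.04). The SIN3 complex had 11 of 13 genes and 27 probe sets tested. COLO668 had 3 up and NCI-H526 2 up and 1 down (11.1% in each, below the share of all tested). NCI-H510 had 1 up (3.7% beside 12.7%) and the other 6 lines 0. SAP30L had 0.15 ± 0.05 at day 4, ING1 0.08 ± 0.06 and ING2 0.07 ± 0.04. MiDAC, a deacetylase complex, had 4 genes and 7 probe sets tested, with 3 up in NCI-H526 (42.9% of only 7, beside 17.5%). SHP-77 and NCI-H146 had 1 down each (14.3%, beside 6.12% and 4.93%), and the other lines 0. MIDEAS had 0.05 ± 0.06, ZNF541 0.03 ± 0.04 and DNTTIP1 -0.02 ± 0.04. No probe set of the 4 lists passed the shared test at day 4, and their medians in it (0.02 for the recruiters and 0.01 for each of the others) lay near the 0.01 of all probe sets.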

How the data were processed

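Arrays of 9 lines were grouped by line, treatment and day from the labels. The authors deposited log2 signals per probe set, and the labels and file headers used here name no program, background correction or scaling for them. How background was treated affects dim probe sets most. Precision is limited by the number of arrays.

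A symbol list for the array covered 54675 probe sets, of which 62 are controls: 41091 had a single gene, 1801 had several and 11721 had none. A probe set was tested if at least 1 group mean exceeded 7.41, the median of all values. The line response came from limma 3.58.1 (R 4.3.3, data.table version 1.17.8) over all 42 group means with 46 residual degrees of freedom, two-sided, Benjamini-Hochberg adjusted over 29598 probe sets and called under 0.05. The spread is pooled over lines, so arrays of one line affect calls in another. Shared tests used 1 ratio per line with the line as replicate, and F tests compared lines. Named values come from a gene's brightest probe set, not ending in _x_at where it has another, and the 3 genes of each list with the largest absolute day 4 mean were named. ELMSAN1 and MIDEAS are names of the same gene. Some listed markers are not reported here. The members and lists were chosen with earlier results of these data known. On simulated data the SHP-77 response recovered 92 of 100 probe sets changed by 0.5 and 99 of 100 changed by 1, and the H2171 response, with 4 arrays, 36 and 95. False calls were 5 in SHP-77 and 6 in H2171. Apart from ZNF217 in COLO668 and NCI-H510, the called responses of members were smaller than 0.5. The simulation, with independent noise on each array, did not cover such sizes. Alternatives changed the normalization, filter, probe set rule, variance prior, arrays, replicate block and unit of replication. Promoter windows and figures used matplotlib 3.10.9, numpy 2.4.6 and pandas 2.3.3 in Python 3.11.15.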

Additional observations from a re-analysis of the deposited data

Results flagged for a closer look

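Among 36 sets of values examined (the ratios of a member on a day, or its arrays in the group of 4), 3 held a line far from the others, and chance gives about 1 set in 20. At day 4 the HMG20B ratio of H2171, -0.0271, was the highest of 9 lines, with a gap to the next of 0.685 of the whole range. The HDAC2 ratio of NCI-H510 at day 4, -0.282, was the lowest of 9, with a gap of 0.586 of the range. The PHF21A ratio of COLO668 at day 7, 0.425, was the highest of 6, with a gap of 0.637 of the range. Responses of RCOR2, RCOR3 and ZNF217 differed between the 6 lines sampled over time by limma's F test, with adjusted p of 0.000455, 0.000128 and 4.51e-08. COLO668 had the highest response in each.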

How the results depend on the processing

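Counts here are of the 9 genes at their brightest probe sets. No called value turned its direction under any alternative. Filter settings, 1 probe set per gene, the intensity trend and fits of a line alone leave the size of a response unchanged by construction. Its direction could not turn in those, and only its adjusted p could move. Among single called values set against an alternative, 132 stayed past the threshold and 12 did not. The shared day 4 test of HMG20B, 0 members called in the reported form, called 1 member under quantile normalization (HMG20B -0.31, limma adjusted p = 0.0483), without a filter (-0.30, 0.0486), with a stricter one (0.0443), with 1 probe set per gene (0.027), with the mean of probe sets (-0.28, 0.0302) and with an intensity trend (0.0337). With arrays as replicates it called 3 (HMG20B 5.06e-09), but that fit measures the spread between arrays of a group and not between lines. It therefore cannot show a fall shared by lines in general. With the line as replicate HMG20B was -0.31 (0.0553) without the 6 arrays in doubt. Quantile normalization called 1 member in NCI-H446, 2 in H1417 and 6 in the F test of the response. Leaving out the 6 arrays called 1 in NCI-H446, 3 in H69, 3 in H1417 and 6 in that F test. None of the 6 is from H69 or H1417, where the responses were unchanged and only their adjusted p moved. The share of all probe sets passing was not computed under these alternatives, so their counts are no result about the members. With 1 probe set per gene H69 had 2, with the mean of probe sets COLO668 had 3, and fits of a line alone had 0 in H69 and in H1417. Without 1 array, members called ranged from 1 to 2 in SHP-77, 2 to 5 in NCI-H526, 2 to 3 in NCI-H510, 4 to 6 in COLO668, 0 to 1 in NCI-H146, 0 to 2 in H69, 0 to 1 in H1417 and 3 to 4 in the F test of the response, and were 0 in NCI-H446 and H2171 and 9 in the F test of the DMSO level. H69's count also moved without single arrays of COLO668, SHP-77 and NCI-H446. Without 1 line the shared response of HMG20B ran from -0.33 to -0.29, with 0 to 1 members called, and the change from day 2 to day 7 had 0.

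Same-numbered arrays of both arms deviated together in some groups and not in others: of 21 combinations of line and day, 10 had both correlations over 0.1, 1 had a single one and 10 had neither, from -0.605 to 0.629. Since not every pair exceeded 0.1 and no label ties the numbers, they were not taken to pair the samples. With the replicate block H69 had 3 members called and the shared test 1 (HMG20B -0.28, adjusted p = 0.044), while HDAC2 in NCI-H526 (0.14, 0.0594) and HDAC1 in NCI-H510 (-0.14, 0.0514) were no longer called. Both also missed without a filter (0.0678 and 0.0578). The cause of these moves was not tested.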

Other observations

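The vehicle arm itself moved with time for some members. From day 2 to day 7 under DMSO ZNF217 rose in level by 0.33 on average over the 6 lines, from -0.18 in NCI-H510 to 0.96 in COLO668, HMG20B by 0.19, from -0.09 to 0.43, with 1 line below 0, and RCOR2 by 0.11. These differences have no test. The DMSO day 7 arrays of COLO668 and SHP-77 include one each with the ACTB excess (1.11 and 1.68), and without the arrays in doubt the means were 0.38 for ZNF217 (1.196 in COLO668 and 0.79 in SHP-77), 0.18 for HMG20B and 0.07 for RCOR2. For HMG20B in COLO668 the DMSO day means were 10.04, 10.26 and 10.47, a drift larger than the fall under 552A at any 1 day. KDM1A (0.02), RCOR1 (0.02), RCOR3 (-0.00) and HDAC2 (-0.00) had means near 0.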
